A study of Mus musculus with 8 samples.

Results

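The miR-199 and miR-214 miRNAs were described in cultured mouse chondrocytes, which make and maintain the cartilage of joints. The members were mmu-miR-199a-5p, mmu-miR-199a-3p, mmu-miR-199b-5p, mmu-miR-199b-3p, mmu-miR-214-5p and mmu-miR-214-3p, that is the 5p and the 3p arm of 3 miRNA names (mmu stands for mouse and is left out in most places), chosen by name, and all 6 were among the 1966 names of the deposited table. Of these 6, 4 had counts and 2, miR-199a-3p and miR-199b-3p, were listed at 0 in every library. Cells were taken from the articular cartilage of femoral heads of wild-type mice of 3 weeks, with pooling of animals not given in the sources used here, and were cultured in medium with fetal bovine serum with vehicle (n = 4 libraries) or with IL-1β (interleukin-1β, a proinflammatory cytokine) at 1 ng/ml for 24 h (n = 4 libraries). Nothing in the labels says whether the 4 libraries of a group came from separate cultures, so that p-values measure the spread between these libraries, which may be technical.

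A miRNA is cut from an arm of a hairpin precursor and pairs with messenger RNAs mainly through its seed, bases 2 to 8, which lowers their stability or translation. Mir199a-2 and Mir214 are transcribed together within Dnm3os, a long non-coding RNA of mesenchymal tissue that is needed for normal growth of the skeleton, and the transcription factor Twist1 drives this transcript. miR-199a-3p is known as a repressor of cyclooxygenase-2, miR-199a-5p of the NF-κB kinase IKKβ, and miR-214-3p of the osteoblast factor ATF4. IL-1β itself signals through NF-κB.

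The hairpins lie at 4 places in the mouse genome (GRCm38, of which mm10 is the browser name), each on the strand opposite to a dynamin gene. Mir199a-2 (chromosome 1, 162217814 to 162217923, plus strand) and Mir214 (chromosome 1, 162223368 to 162223477, plus strand) lie 5444 bases apart, each within an annotated exon of Dnm3os and, on the other strand, an intron of Dnm3. Mir199a-1 (chromosome 9, 21496495 to 21496564, minus strand) lies opposite an intron of Dnm2, and Mir199b (chromosome 2, 32318460 to 32318569, plus strand) opposite an intron of Dnm1. The hairpins of Mir199a and Mir214 are printed from RefSeq (GRCm38.p6), 5′ to 3′, with the 5p and then the 3p arm in capitals, to show which stretch each count stands for.
Mir199a-2: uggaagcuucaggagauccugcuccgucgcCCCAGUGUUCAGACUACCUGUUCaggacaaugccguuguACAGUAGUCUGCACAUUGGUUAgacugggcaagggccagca
Mir199a-1: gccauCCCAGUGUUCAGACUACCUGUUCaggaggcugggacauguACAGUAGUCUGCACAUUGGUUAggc
Mir214: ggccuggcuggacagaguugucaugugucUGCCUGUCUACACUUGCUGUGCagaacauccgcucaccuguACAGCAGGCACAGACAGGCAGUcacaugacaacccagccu

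Both Mir199a hairpins carry the same 5p arm of 23 nt, and the identical stretch runs on for 4 bases, to 27 nt in all. For the 3p arm the identical stretch is 26 nt. A read of mature length therefore cannot be assigned to Mir199a-1 on chromosome 9 or Mir199a-2 on chromosome 1, and the counts of miR-199a-5p are not a measure of Dnm3os alone. Mir214 has 1 locus, so that its arms can be assigned.

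The mature arms are printed with the seed in capitals, because the seed groups miRNAs that can share targets. Of the 6 members, 5 were matched by name in the RefSeq table. The entry not matched was miR-199b-5p.
miR-199a-5p: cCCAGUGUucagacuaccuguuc
miR-199a-3p: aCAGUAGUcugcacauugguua
miR-199b-3p: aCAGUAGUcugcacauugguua
miR-214-5p: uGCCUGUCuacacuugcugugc
miR-214-3p: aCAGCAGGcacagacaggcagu
The printed arms fall into 4 seed groups. miR-199a-3p and miR-199b-3p share all 22 bases. The seeds of miR-199a-3p and miR-214-3p differ at 2 of 7 bases, U5C and U8G (the miR-199a-3p base, the position from 1 at the 5′ end, the miR-214-3p base), while the whole arms have 8 of 22 positions in common. miR-761 was the other name of the table with the seed of miR-214-3p, and it had 0 counts. No other name of the table that could be matched had the seed of miR-199a-5p or of miR-214-5p. miR-199b-5p was not part of this comparison, so whether it shares the seed of miR-199a-5p was not tested.

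The deposited values were whole numbers, taken here as uncorrected counts, with library totals of 616475 to 1568367. Pearson correlations of the log2 profiles between libraries were 0.967 to 0.985 across 564 tested miRNAs. The cartilage miRNAs miR-140 and miR-455, used as markers of chondrocytes, took 15.6% to 16.8% of counts with vehicle and 12.4% to 15.3% with IL-1β, and all 4 of their arms were detected. All 5 muscle markers were at 0 in all libraries. Of the 6 haematopoietic, 2 endothelial and 7 epithelial markers, 4, 1 and 2 were at 0 in all libraries. The haematopoietic markers summed to 0.00441% to 0.00638% of counts with vehicle and 0.00260% to 0.00471% with IL-1β, the endothelial markers to at most 0.000288%, and the epithelial markers to at most 0.00115% of counts in any library. Fewer cells of a type and less RNA per cell cannot be told apart in such bulk libraries.

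How abundant the family was in chondrocytes was examined first. The 4 counted arms together took 0.308% ± 0.0194 of a vehicle library and 0.291% ± 0.00767 of an IL-1β library (mean ± SD over 4 libraries each), and the groups overlapped, at 0.283% to 0.324% and 0.285% to 0.302%. miR-214-3p and miR-199a-5p gave nearly all of it: miR-214-3p made up 56.5% ± 2.46 of the family's counts with vehicle and 53.6% ± 1.59 with IL-1β, and miR-199a-5p 39.2% ± 2.61 and 42.0% ± 2.05 (SD, n = 4 each). By mean abundance among the 564 tested miRNAs, miR-214-3p ranked 46, miR-199a-5p 51, miR-214-5p 162 and miR-199b-5p 209. The order miR-214-3p, miR-199a-5p, miR-214-5p, miR-199b-5p was the same in every library, and no neighbors in it overlapped within a group. A read stands for a whole arm of 22 or 23 nt. Dividing by that length changes the ratio of miR-214-3p to miR-199a-5p by the same factor in every library. By construction the ratio was then slightly larger, at 1.52 ± 0.166 per nt with vehicle and 1.34 ± 0.107 with IL-1β (mean ± SD, n = 4), against 1.45 ± 0.159 and 1.28 ± 0.102 as counts. Ligation and amplification favor some sequences, so that these are ratios of reads, not of molecules.

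The comparison of IL-1β with vehicle was then made for each arm. Values per library are normalized CPM, CPM being a count as a share of its library, times 1e+06, after each library total had been scaled by a TMM factor (the trimmed mean of M values, which balances libraries on most miRNAs). None of the 4 tested arms was past the threshold in the quasi-likelihood test of edgeR (Benjamini-Hochberg adjusted p under 0.05 over 564 miRNAs and absolute log2 fold change over 0.3), against 11 of all 564, or 1.95% (1.42% called higher with IL-1β and 0.532% called lower). None had an unadjusted p under 0.05 (0 of 4), against 63 of 564, or 11.2%, and DESeq2 called none of the 4 either, at an adjusted or an unadjusted p under 0.05. Likewise, for 0 of the 4 arms did the IL-1β libraries all lie outside the range of the vehicle libraries, a separation seen for 7.62% of tested miRNAs. All 4 arms exceeded 1 CPM in all 8 libraries, so that the filter on low counts did not depend on either group.

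**Figure D1:**
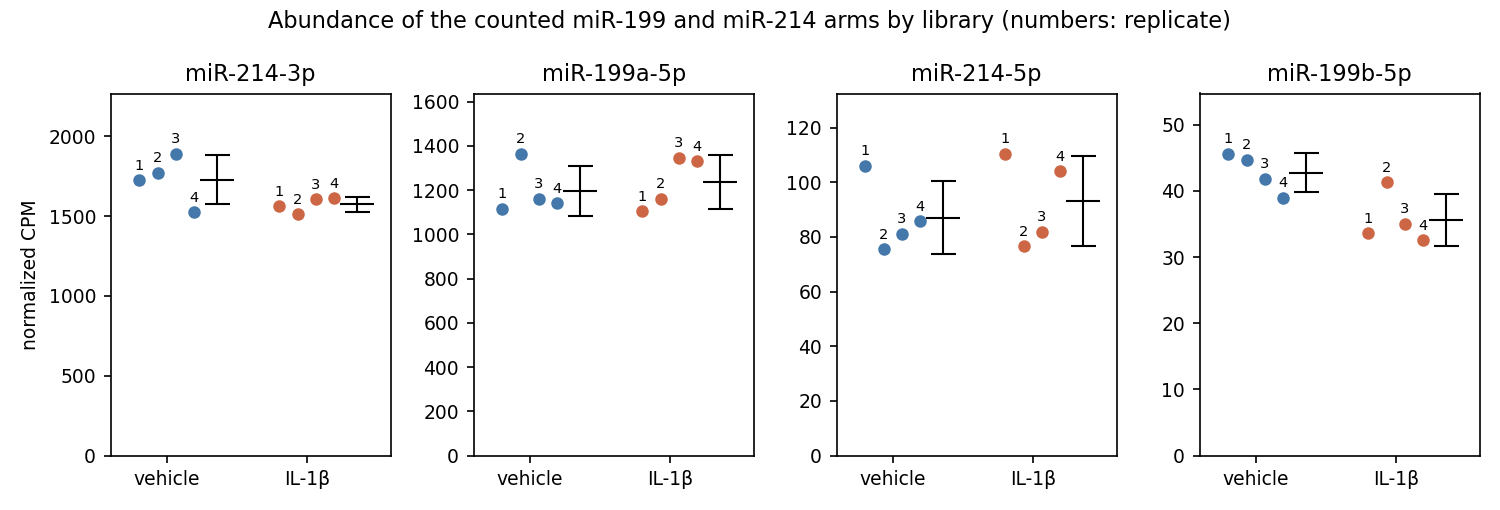
Abundance (normalized CPM, axes from 0) of the 4 counted arms in each library, with points numbered by replicate and the mean ± SD of 4 libraries as a black bar beside them. Vehicle and IL-1β libraries overlapped for every arm, with the smallest overlap for miR-199b-5p, where only IL-1β replicate 2 (41.3) lay within the vehicle range.

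mmu-miR-214-3p, the most abundant arm, was at 1724, 1771, 1889 and 1523 normalized CPM in vehicle replicates 1 to 4. In IL-1β replicates 1 to 4 it was at 1563, 1513, 1604 and 1612. The IL-1β libraries were all below 3 of the 4 vehicle libraries, but vehicle replicate 4 was among them. The mean was 1727 ± 152 with vehicle and 1573 ± 45.5 with IL-1β (mean ± SD, n = 4). On the log2 scale the difference, IL-1β minus vehicle, was -0.14, with an SE of 0.0837 and a 95% interval of -0.31 to 0.04 (adjusted p = 0.650 in edgeR). As a fold this interval runs from 0.807 to 1.03. The log2 value ran from -0.22 without vehicle replicate 4 to -0.09 without vehicle replicate 3. The spread with IL-1β, a coefficient of variation of 2.89%, was close to the 2.84% that counting error alone gives at this depth, whereas with vehicle it was 8.83% against 2.36%.

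mmu-miR-214-5p, from the other arm of the same hairpin, was far scarcer, with 55 to 130 counts per library. It was at 106, 75.4, 81.2 and 85.7 normalized CPM in vehicle replicates 1 to 4. In IL-1β replicates 1 to 4 it was at 110, 76.7, 81.8 and 104. IL-1β replicates 1 and 4 and vehicle replicate 1 were the high libraries, and the groups overlapped over nearly their whole range. The mean was 87.1 ± 13.3 with vehicle and 93.2 ± 16.5 with IL-1β (mean ± SD, n = 4). On the log2 scale the difference, IL-1β minus vehicle, was 0.10, with an SE of 0.151 and a 95% interval of -0.22 to 0.41 (adjusted p = 0.871 in edgeR), or 0.861 to 1.33 as a fold. The value ran from 0.01 without IL-1β replicate 1 to 0.20 without vehicle replicate 1.

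mmu-miR-199a-5p, known to target IKKβ and encoded in both Mir199a hairpins, was at 1117, 1364, 1162 and 1140 normalized CPM in vehicle replicates 1 to 4. In IL-1β replicates 1 to 4 it was at 1104, 1161, 1346 and 1331. The high libraries were vehicle replicate 2 and IL-1β replicates 3 and 4, and the groups overlapped over nearly their whole range. The mean was 1196 ± 114 with vehicle and 1235 ± 121 with IL-1β (mean ± SD, n = 4). On the log2 scale the difference, IL-1β minus vehicle, was 0.05, with an SE of 0.0914 and a 95% interval of -0.14 to 0.23 (adjusted p = 0.904 in edgeR), or 0.906 to 1.18 as a fold. The sign of this value turned when vehicle replicate 4 (-0.01) or IL-1β replicate 3 (-0.01) was left out.

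mmu-miR-199b-5p was the scarcest counted arm, with 21 to 67 counts per library. It was at 45.6, 44.7, 41.9 and 38.9 normalized CPM in vehicle replicates 1 to 4. In IL-1β replicates 1 to 4 it was at 33.6, 41.3, 35.1 and 32.6, so that 3 of the 4 IL-1β libraries were below all vehicle libraries. The mean was 42.8 ± 3.01 with vehicle and 35.6 ± 3.91 with IL-1β (mean ± SD, n = 4). On the log2 scale the difference, IL-1β minus vehicle, was -0.25, with an SE of 0.174 and a 95% interval of -0.61 to 0.11 (adjusted p = 0.701 in edgeR), or 0.656 to 1.08 as a fold. Counting error alone gives a coefficient of variation of 14.9% with vehicle and 19.0% with IL-1β at these counts, more than the 7.04% and 11.0% observed. Without IL-1β replicate 2 the log2 fold change was -0.39 (adjusted p = 0.589 by edgeR), and over its 15 alternatives the adjusted p ranged from 0.490 to 0.844.

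**Figure D2:**
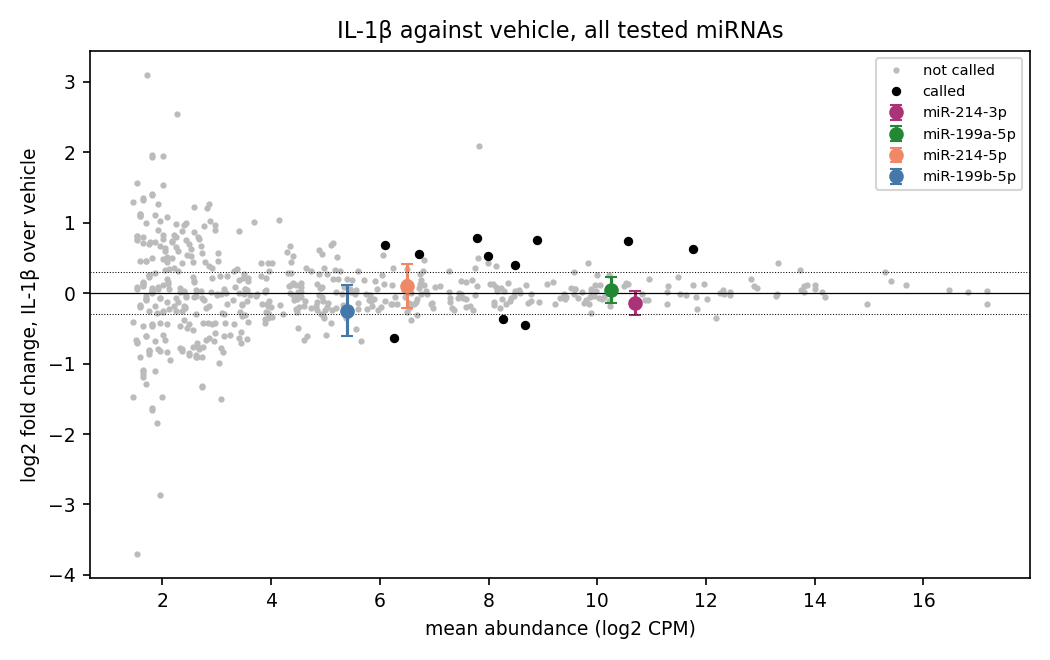
Log2 fold change (IL-1β over vehicle) against mean abundance (log2 CPM) for the 564 tested miRNAs, with the 11 called in black and the counted miR-199 and miR-214 arms in color with their 95% intervals; dotted lines mark a log2 fold change of 0.3 in either direction. The 4 arms lie between -0.25 and 0.10, and each interval includes 0.

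The log2 fold changes of the 4 arms, 2 above and 2 below 0, had a median of -0.05, against 0.01 over all 564 miRNAs, where the quartiles were -0.20 and 0.25. miR-199b-5p lay below the lower quartile and the other arms between the quartiles. At a mean of at least 1000 counts, which holds 59 miRNAs including miR-214-3p and miR-199a-5p, the median absolute log2 fold change was 0.10, and 6 of the 59 had a lower log2 fold change than miR-214-3p. The biological coefficient of variation that edgeR assigned was 0.0973 for miR-214-3p, 0.105 for miR-199a-5p, 0.119 for miR-214-5p and 0.0807 for miR-199b-5p, each below the median of 0.133.

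**Figure D3:**
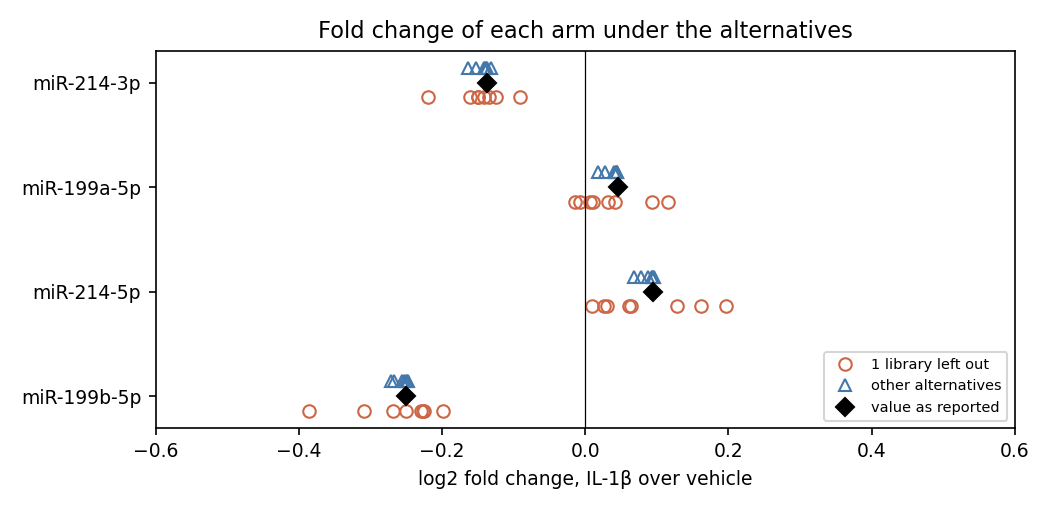
Log2 fold change of each counted arm as reported (diamonds), with 1 library left out (circles, 8 fits) and under the 7 other alternatives (triangles). miR-214-3p ran from -0.22 to -0.09 and miR-199b-5p from -0.39 to -0.20, both below 0 throughout, miR-214-5p ran from 0.01 to 0.20, and miR-199a-5p crossed 0 without vehicle replicate 4 or without IL-1β replicate 3.

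Because a ratio of arms within a library needs no scaling between libraries, the balance of the miR-214 arms was compared separately. The 3p arm had 16.3, 23.5, 23.3 and 17.8 counts for each count of the 5p arm in vehicle replicates 1 to 4. In IL-1β replicates 1 to 4 it had 14.2, 19.7, 19.6 and 15.5. The 3p arm dominated in all 8 libraries, and the groups overlapped. miR-214-5p made up 4.83% ± 0.862 of the reads of its hairpin in vehicle libraries and 5.58% ± 0.888 in IL-1β libraries (SD, n = 4). The log2 ratio of 5p to 3p was -4.31 ± 0.272 with vehicle and -4.08 ± 0.242 with IL-1β (mean ± SD, n = 4), a difference of 0.23 (SE 0.184, 95% interval -0.15 to 0.60, limma adjusted p = 0.730 over 142 hairpins). It ran from 0.14 without IL-1β replicate 1 to 0.32 without vehicle replicate 1, and was 0.15 without vehicle replicate 2. An exact permutation test of this single value gave a two-sided p of 0.286, where 4 against 4 libraries cannot go below 0.0286. Of the 142 hairpins with both arms tested, 2 were called, or 1.41%. A dominant arm was common among them: the 5p arm was the lower in 68 and the higher in 74, and 59 of the 142, with miR-214 counted, were at least as unequal as miR-214.

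The counts of different hairpins were also set side by side within each library, as a description. miR-214-3p had 1.54, 1.30, 1.63 and 1.34 counts for each count of miR-199a-5p in vehicle replicates 1 to 4. In IL-1β replicates 1 to 4 it had 1.42, 1.30, 1.19 and 1.21. IL-1β replicates 3 and 4 were below all vehicle libraries and the other two lay within their range. miR-199a-5p had 28.0 ± 2.60 counts for each count of miR-199b-5p in vehicle libraries and 35.1 ± 5.70 in IL-1β libraries (SD, n = 4), and only IL-1β replicate 2, at 28.1, lay within the vehicle range of 24.5 to 30.5.

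**Figure D4:**
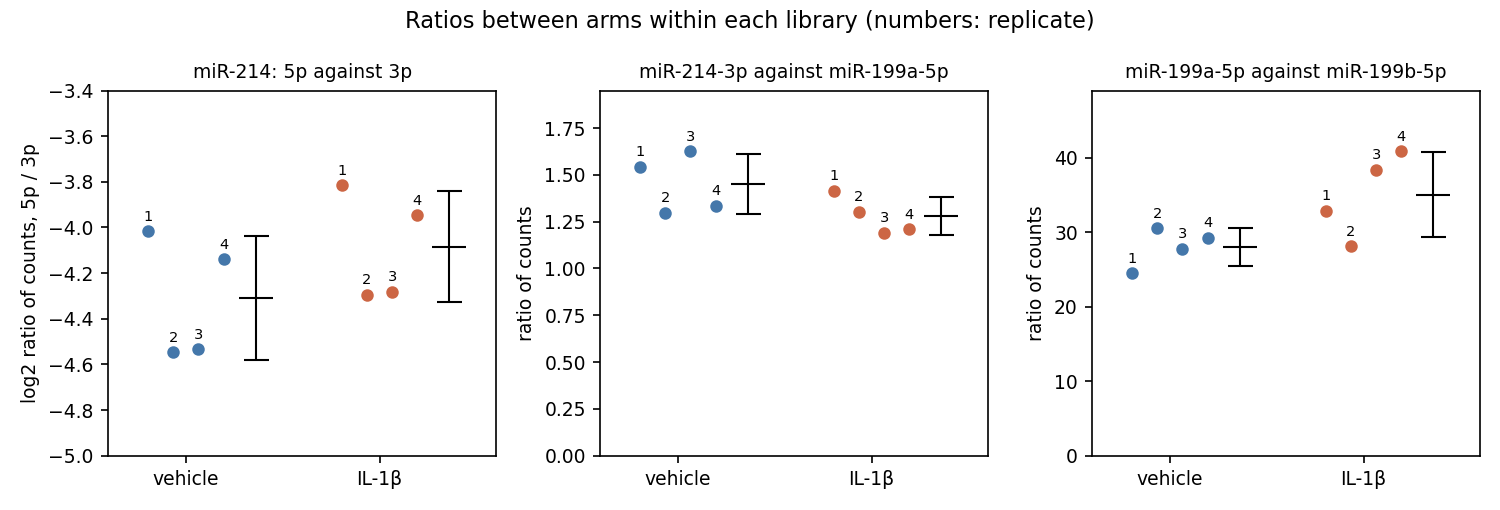
Ratios of counts between arms in each library: the log2 ratio of miR-214-5p to miR-214-3p, the ratio of miR-214-3p to miR-199a-5p, and the ratio of miR-199a-5p to miR-199b-5p, with points numbered by replicate and the mean ± SD of 4 libraries in black. Vehicle and IL-1β libraries overlap in all 3 panels, and in each group replicates 1 and 4 have the higher miR-214 arm ratios.

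miR-199a-3p and miR-199b-3p, the arms of identical sequence, could not be compared, because both were listed at 0 in all 8 libraries. At a one-sided 95% limit, a count of 0 allows up to 3 counts, or 1.91 CPM in the deepest library and 4.87 CPM in the shallowest, while the 5p arm of the same Mir199a hairpins had 690 to 2044 counts. These limits cover counting error only and hold for reads that the counting could assign. The shared sequence printed above has 3 loci under 2 names. It is 1 of 4 mature sequences that the RefSeq table places under several names of the deposited table, and all 4 had 0 counts under each of their 9 names. The others were that of let-7a-1-3p and let-7c-2-3p, that of miR-344e-5p and miR-344h-5p, and that of the 3p arms of miR-465a, miR-465b and miR-465c (named after their values were seen). Sequences with several loci under 1 name were often counted: 31 of 50 had counts, as did 841 of 1616 sequences with 1 locus. Those with 2 loci under 1 name reached 918339 counts over the 8 libraries, 28 of 44 had counts, and 7 exceeded the 9740 counts of miR-199a-5p. Of 6 sequences with 3 or more loci under 1 name, 3 had counts, of at most 32. How reads with several matches were counted is not given in the sources used here, and its part in these values was not tested. The values listed at 0 are therefore no measure of whether chondrocytes make the 3p arm of miR-199.

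**Figure D5:**
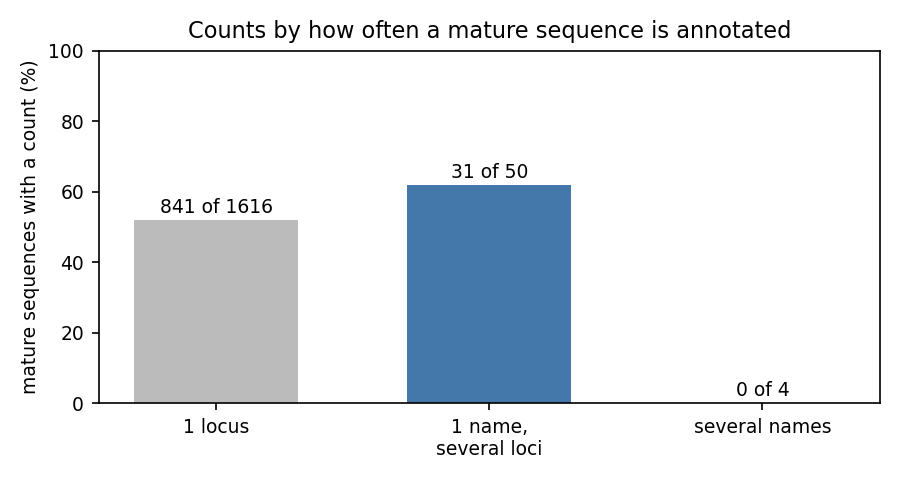
Share of mature sequences with at least 1 count over the 8 libraries (%, axis from 0 to 100), by whether the sequence has 1 locus, several loci under 1 name, or several names. The bars stand at 52.0%, 62.0% and 0%, and the sequence of miR-199a-3p and miR-199b-3p is among the 4 of the last class.

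Pearson correlations of log2 normalized CPM between pairs of the 4 counted arms ran from -0.44 (miR-199b-5p and miR-214-5p) to 0.51 (miR-199b-5p and miR-214-3p), and Spearman correlations from -0.71 (miR-199a-5p and miR-214-5p, Pearson -0.37) to 0.45 (miR-199b-5p and miR-214-3p). The abundant pair, miR-214-3p and miR-199a-5p, had a Pearson correlation of 0.15 and a Spearman correlation of 0.40. These values rest on 8 libraries of both groups that share depth and scaling, and they are descriptions. By the same measure, the miRNAs outside the family most like miR-214-3p, among 192 with a mean of at least 50 counts, were miR-148b-3p (Pearson 0.87, Spearman 0.95), miR-26b-5p (0.79 and 0.55) and miR-181a-1-3p (0.75 and 0.79). They were picked for their high Pearson values. Set among the 192, miR-199b-5p would rank 22 and miR-199a-5p 78. miR-214-5p, of the same hairpin as miR-214-3p, would rank 138 (Pearson -0.16, Spearman -0.17). miR-148b-3p was at 159 ± 29.5 normalized CPM with vehicle and 148 ± 14.5 with IL-1β (mean ± SD, n = 4), a log2 difference of -0.13 (adjusted p = 0.757 by edgeR). Neither miR-26b-5p nor miR-181a-1-3p was called, with log2 fold changes of -0.23 and -0.19 (adjusted p = 0.372 and 0.556 by edgeR).

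miRNAs that are common in mesenchymal cells were read out of the same comparison. Of 15 listed, 13 were tested, 1 rose and 0 fell, against 1.42% called higher and 0.532% called lower among all 564, with a median log2 fold change of 0.08 against 0.01 over all tested miRNAs. miR-21a-5p, a miRNA induced by inflammatory signals, rose by 0.75 on the log2 scale (SE 0.105, adjusted p = 3.58e-05 by edgeR). miR-10b-5p, which Twist1 also drives, had the next highest value, at 8760 ± 756 normalized CPM with vehicle and 11798 ± 4781 with IL-1β (mean ± SD, n = 4), a log2 difference of 0.43 (adjusted p = 0.687 by edgeR). It was followed by miR-125b-5p at 0.30 (adjusted p = 0.232 by edgeR). The lowest values were those of miR-152-3p and miR-23b-3p, both at -0.16 (adjusted p = 0.753 and 0.650 by edgeR).

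Of 23 miRNAs with described roles in cartilage or bone cells, 19 were tested and 0 were called by edgeR, against 1.95% of all 564, a share at which 0 of 19 is no result about the list. Their median log2 fold change was -0.15, with 14 of 19 below 0, against 279 of 564 among all tested miRNAs. miR-204-5p, described as protective in joints, was at 211 ± 11.7 and 227 ± 22.7 normalized CPM in the vehicle and the IL-1β group (SD, n = 4), a log2 difference of 0.10 (adjusted p = 0.777 by edgeR), and miR-20a-5p, of the miR-17-92 cluster, was at 11.0 ± 1.40 and 8.71 ± 2.44 (SD, n = 4), a log2 difference of -0.42 (adjusted p = 0.753 by edgeR). miR-29b-3p and miR-29c-3p, which target collagen messages, had means below 3 counts per library, too few to give a fold, and miR-29b-3p was at a mean of 0.766 normalized CPM with vehicle and 1.80 with IL-1β. In cartilage cells the miR-140 and miR-455 arms are the defining members of the list, and all 4 had negative log2 fold changes, from -0.35 (miR-455-3p, adjusted p = 0.0691 by edgeR) to -0.15 (miR-140-3p, adjusted p = 0.546 by edgeR).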

How the data were processed

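MicroRNA-seq counts of 8 libraries (4 vehicle, 4 IL-1β) were analyzed. The authors trimmed reads with cutadapt, aligned them to mm10 (GENCODE vM20 annotation) with STAR (version 2.4.2a in the submitters' processing notes; the methods name another version) at default parameters and deposited counts of reads per mature miRNA from featureCounts. The source of the names of the mature arms, the use of strand and the handling of reads with several matches are not given in the sources used here. STAR at default parameters was made for longer reads, and reads it could not place are missing. A batch correction was described, and whether the deposited values precede it is not given; they were whole numbers with unequal sums and were taken as uncorrected, although rounded corrected counts could look the same.

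miRNAs over 1 CPM in at least 4 of 8 libraries were tested with edgeR 4.0.16 (quasi-likelihood, robust, two-sided, TMM, group as the only term) in R 4.3.3. Intervals of 95% came from the fitted SE. Arm ratios, log2 of counts with 0.5 added, were tested with limma 3.58.1. Alternatives were 2 other scalings, 2 other filters, DESeq2 1.42.0, a replicate block, a factor of unwanted variation, and each library left out. The scripts were tested on simulated data.

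The members, lists, thresholds and rules were chosen with earlier results of these data known. Named miRNAs were the members, those with a member's seed, the called and the 2 highest and 2 lowest of each list, the miR-140 and miR-455 markers, and the 3 most like miR-214-3p. Sequences and loci came from RefSeq and GENCODE vM21 (GRCm38).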

Additional observations from a re-analysis of the deposited data

Results flagged for a closer look

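In 2 cases, among 50 groups of 4 libraries examined for the named miRNAs and the ratios above, a library lay far from the other 3 of its group. Chance flags about 1 in 20 such groups. With IL-1β, miR-125b-5p was at 58673 normalized CPM in replicate 4, while the other 3 libraries lay at 37476 to 41063. With vehicle, miR-29c-3p was at 0 in replicate 4, against 1.87 to 2.12 normalized CPM in the others, where 3 counts are worth up to 4.73 CPM. No value of a miR-199 or miR-214 arm lay apart in this way.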

How the results depend on the processing

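None of the 4 counted arms was called under any of 15 alternatives, and the smallest adjusted p was 0.225 (miR-214-3p, factor of unwanted variation). miR-214-3p and miR-199b-5p stayed negative and miR-214-5p positive. The log2 fold change of miR-199a-5p turned negative without vehicle replicate 4 (-0.0069) or IL-1β replicate 3 (-0.014), in a range of -0.01 to 0.12 over the libraries left out. The count over all miRNAs, 11, was 19 with the replicate block, 28 with a factor of unwanted variation and 6 to 19 with a library left out (6 without vehicle replicate 4, 7 without vehicle replicate 2 or IL-1β replicate 3, 19 without IL-1β replicate 4). The cause was not tested. Without the 10 most abundant miRNAs in the denominator, by construction, the family's share became 1.06% in vehicle and 0.970% in IL-1β libraries.

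The labels do not say whether same-numbered libraries shared more than a number, such as a preparation, and this was not tested. Their deviations correlated by 0.17, -0.34, 0.10 and -0.18 for numbers 1 to 4 across 195 miRNAs. Of the 4 vehicle libraries, 2 correlated best with their own number. With the replicate block the miR-214 arm ratio differed by 0.23 as before (limma adjusted p = 0.763), although the difference was positive in all 4 same-numbered pairs, at 0.20, 0.25, 0.25 and 0.19. Summing the rows of miR-199a-3p and miR-199b-3p before the tests was not run, since both were at 0, and counting them once left the family's share as it was. Counting error was largest for miR-199b-5p and miR-214-5p.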
